A study of Rattus norvegicus with 20 samples.

Results

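The genes described here encode the antioxidant enzymes of the choroid plexus, the ventricular tissue whose epithelium secretes the cerebrospinal fluid. A list of 10 was taken by gene symbol: the superoxide dismutases Sod1 and Sod2, the glutathione peroxidases Gpx1 and Gpx4, the peroxiredoxins Prdx1, Prdx2, Prdx3, Prdx5 and Prdx6, and catalase (Cat). Of these, 9 could be joined to an Ensembl identifier among the 32883 genes measured, and Cat was not analysed here. RNA was sequenced from the choroid plexus of the lateral ventricles and the fourth ventricle of 20 female Zucker rats, 16 weeks of age and fed normal chow, with 1 library per rat. Obese rats (fa/fa, n = 6) carry a defective leptin receptor on both alleles and overeat, whereas their lean comparators (+/fa, n = 6) carry it on 1 allele, and neither group was injected. A further cohort of the same genotypes held obese rats injected subcutaneously with testosterone propionate in sesame oil over the last weeks before sampling (obese + TT, n = 4) and lean rats injected with the oil alone (lean control, labelled Lean + VEH, n = 4). No obese rats received the oil alone and no lean rats received testosterone, so that obesity and testosterone cannot be told apart within the injected cohort.

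Superoxide dismutases turn superoxide, a by-product of respiration, into hydrogen peroxide. Glutathione peroxidases, peroxiredoxins and catalase then reduce the peroxide, the first with electrons from glutathione and most peroxiredoxins with electrons from thioredoxin, both of which are recharged by NADPH. The choroid plexus epithelium is rich in mitochondria and has a high metabolic rate, which makes this chemistry part of its ordinary upkeep.

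Values were deposited as TPM (transcripts scaled to a fixed total, corrected for gene length), which sum to the same total in every library. Mapped reads per library are therefore unknown, although a sequencing output of 12 Gb is given for each, and n counts rats. Between 14968 and 16860 genes were above 0 per library. Transthyretin (Ttr), the main secreted protein of the epithelium, took 31.2 to 39.3% of the TPM of each untreated rat and 25.8 to 30.5% of each injected rat. Of 10 epithelial markers, the 9 other than Ttr summed to 7716 to 9475 TPM in the untreated and 11846 to 13648 TPM in the injected rats. No identifier was at hand for the marker genes of neurons or oligodendrocytes, and Gja1, the 1 of 4 astrocyte markers with one, lay between 1.21 and 9.12 TPM.

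All 9 enzymes were well above the level of most genes. Only 2616 of 32883 identifiers could be joined to a symbol, mostly those of abundant genes. This matching, which left out Cat, favoured high levels, so that abundance cannot be read as a trait of the enzymes. Sod1 and Gpx4 were the most abundant, with means of 1047 and 1029.6 TPM over the 20 libraries, ranks 70 and 71 among all genes. Gpx1 (590.2 TPM), Prdx1 (545 TPM) and Prdx5 (441 TPM) came next, ahead of Prdx2 (304 TPM), Prdx6 (220.4 TPM), Sod2 (122 TPM) and Prdx3 (60.1 TPM). Even Prdx3, at rank 1544, was above 90.0% of the genes that average 0.1 TPM or more. The order held in each of the 20 rats for all neighbours but 2 pairs. Gpx1 was above Prdx1 in 16 of 20 rats. Sod1 was above Gpx4 in 11 rats: in 0 of 6 lean, 3 of 6 obese, 4 of 4 lean control and 4 of 4 obese + TT rats, as the plot of TPM by rat shows.

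**Figure D1:**
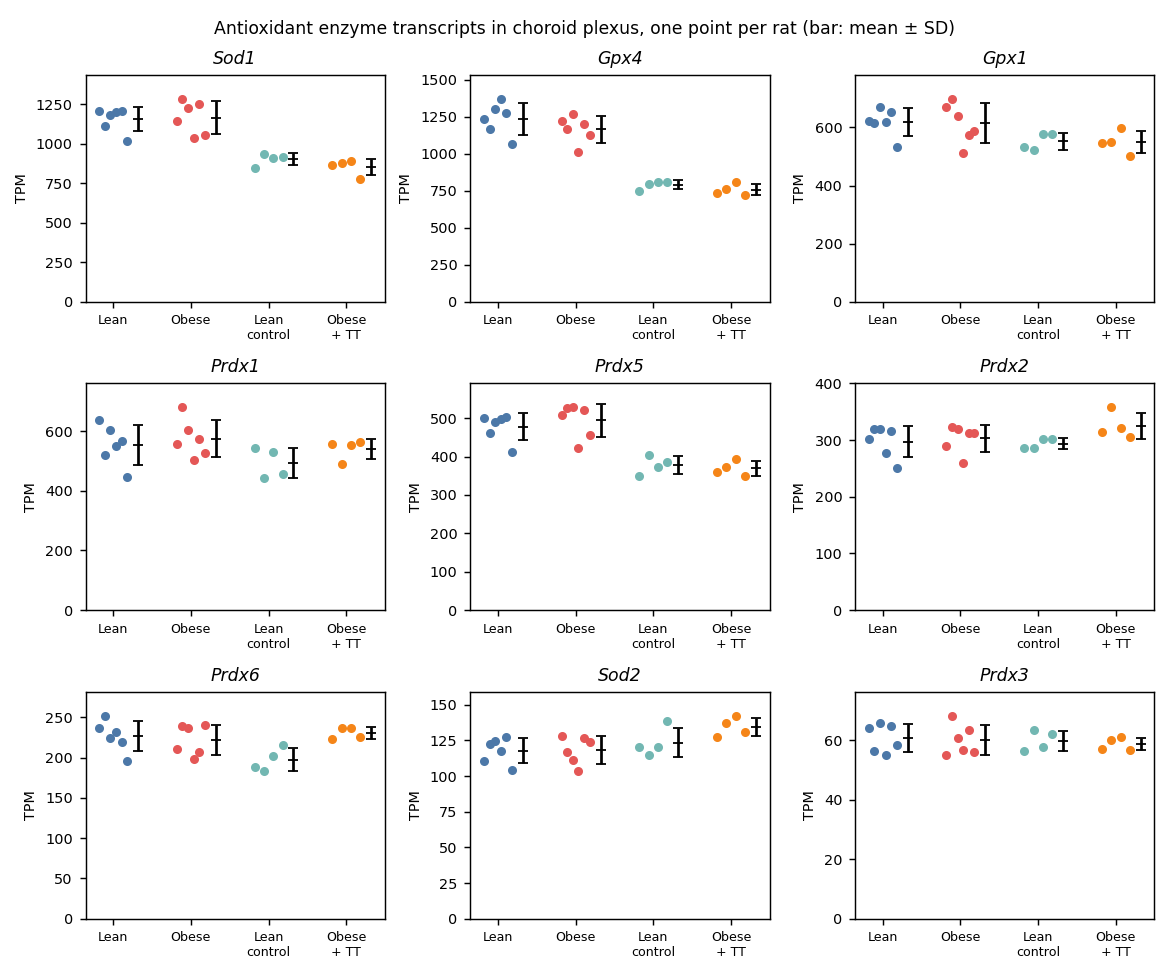
TPM of the 9 enzymes, one point per rat, for lean (n = 6), obese (n = 6), lean control (n = 4) and obese + TT (n = 4) rats, with mean ± SD beside each group. Every axis starts at 0, and for Sod1, Gpx4 and Prdx5 every injected rat lay below every untreated rat.

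Promoters are shown for the 3 enzymes that differed in the same direction in both comparisons between cohorts, Gpx4, Sod1 and Prdx5, and for Prdx1, one of the enzymes known to be induced by the oxidant-responsive factor NRF2. Each is the 250 bases before the RefSeq transcription start in the build GRCr8, written 5′ to 3′ on the gene's strand. For Gpx4 the outermost of its RefSeq starts is used. The positions are chr7:10303630-10303879 (minus strand) for Gpx4, chr11:42942573-42942822 (plus) for Sod1, chr1:213532028-213532277 (minus) for Prdx5 and chr5:135383656-135383905 (plus) for Prdx1. Capitals mark, on either strand, the GC box GGGCGG and the core of the antioxidant response element, TGACNNNGC, to which NRF2 binds.
Gpx4: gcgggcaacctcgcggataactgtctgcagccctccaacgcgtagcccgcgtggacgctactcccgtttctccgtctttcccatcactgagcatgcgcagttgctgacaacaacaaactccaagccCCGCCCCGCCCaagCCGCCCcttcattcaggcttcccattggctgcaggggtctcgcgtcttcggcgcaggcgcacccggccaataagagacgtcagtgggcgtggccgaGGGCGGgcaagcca
Sod1: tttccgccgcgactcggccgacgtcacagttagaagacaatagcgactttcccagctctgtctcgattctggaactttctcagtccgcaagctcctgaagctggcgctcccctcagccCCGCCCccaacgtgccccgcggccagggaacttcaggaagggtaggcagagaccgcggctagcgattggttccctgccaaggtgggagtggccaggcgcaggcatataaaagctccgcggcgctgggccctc
Prdx5: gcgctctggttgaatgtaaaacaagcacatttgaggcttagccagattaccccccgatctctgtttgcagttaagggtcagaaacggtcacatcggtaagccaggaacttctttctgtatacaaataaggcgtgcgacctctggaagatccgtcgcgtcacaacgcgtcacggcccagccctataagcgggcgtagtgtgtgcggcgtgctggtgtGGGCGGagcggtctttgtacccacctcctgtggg
Prdx1: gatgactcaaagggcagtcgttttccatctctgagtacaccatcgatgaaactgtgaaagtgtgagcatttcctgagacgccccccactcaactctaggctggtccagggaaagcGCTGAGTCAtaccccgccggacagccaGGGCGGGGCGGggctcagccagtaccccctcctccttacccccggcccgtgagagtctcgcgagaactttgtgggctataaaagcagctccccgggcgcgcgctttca
A GC box was present in 1 or more promoter windows of all 8 enzymes with an entry, against 30.5% of the 33469 rat windows searched. The innermost Gpx4 window, not printed, held none. The enzyme windows were 55.2 (Prdx5) to 71.6% (Sod2) G or C, against a median of 51.2% over all windows. The part of this base composition in the matches was not tested. Gpx4 had 4 matches in the window shown, of which only the first 2 share 1 base. Prdx1 had 2, which also share 1 base. The antioxidant response element core was found in Prdx1 and Sod2, 2 of 8, against 10.1% of all promoters, and in none of the 3 other promoters printed. The sequence TATAAA, not capitalized, was found in Prdx1 and Sod1 (12.9% of all promoters). The androgen receptor core AGAACA was in 0 of 8 (17.5% of all promoters). These matches describe the letters of the windows only, and the expression values themselves were made on another build, Rnor_6.0.

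The question of the untreated cohort was whether obesity alone alters the choroid plexus. None of the antioxidant enzymes passed the test between obese and lean rats, and all 9 differed by little in level. Sod1 (ENSRNOG00000002115), the copper and zinc enzyme of the cytosol, ranged from 1019.6 to 1208 TPM in lean rats (median 1190.2) and from 1039 to 1284 TPM in obese rats (median 1184). Sod2 (ENSRNOG00000019048), the manganese enzyme of the mitochondrial matrix, ranged from 104.5 to 127 TPM (median 120.0) and from 103 to 128 TPM (median 121). The groups overlapped for both dismutases, with 3 of 6 obese rats above the highest lean rat for Sod1.

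Gpx4 (ENSRNOG00000013604), which reduces lipid hydroperoxides inside membranes and protects cells from ferroptosis, ranged from 1068 to 1371 TPM in lean rats (median 1253) and from 1009 to 1271 TPM in obese rats (median 1182). With means of 1236 ± 107 and 1165 ± 91.0 TPM (SD, n = 6 per group) it had the lowest log2 fold change of the 9, -0.08 (standard error, SE, 0.07, 95% interval -0.23 to 0.07, limma adjusted p = 0.753; exact two-sided permutation test, p = 0.255). Gpx1 (ENSRNOG00000048812), the main soluble glutathione peroxidase, was at 619 ± 48.1 and 614 ± 68.7 TPM (SD, n = 6 per group).

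Among the peroxiredoxins, the cytosolic Prdx1 (ENSRNOG00000017194) had the highest log2 fold change of the 9 enzymes, 0.05 (SE 0.09, 95% interval -0.13 to 0.24, limma adjusted p = 0.897), and group means of 554 ± 65.9 and 574 ± 62.4 TPM (SD, n = 6 per group). Prdx5 (ENSRNOG00000021125), found in mitochondria, peroxisomes and cytosol, was at 477 ± 35.7 and 494 ± 44.1 TPM. Prdx2 (ENSRNOG00000003520), a cytosolic enzyme that is also abundant in red blood cells, was at 298 ± 28.0 and 303 ± 24.2 TPM. Prdx6 (ENSRNOG00000002896), which works with glutathione and acts on oxidized phospholipids, and Prdx3 (ENSRNOG00000010958), the mitochondrial peroxiredoxin, had log2 fold changes of -0.03 and -0.02.

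Of 15176 genes tested in obese against lean rats, 0.0% had an adjusted p under 0.05 with limma and Benjamini-Hochberg adjustment, and 0 of 9 enzymes did. Unadjusted p-values under 0.05 belonged to 9.66% of all genes and to 0 of 9 enzymes. The 95% intervals of the 9 log2 fold changes all lay between -0.23 and 0.24, the adjusted p-values were 0.753 to 0.987 and the exact p-values 0.255 to 0.911. The median log2 fold change of the enzymes was 0.01, beside 0.02 over all genes. For every enzyme the groups overlapped, where 0.54% of all genes did not. Lean rat 6 was the lowest of its group for 8 of 9 enzymes and obese rat 10 for 8 of 9. These rats also had the highest Ttr share of their groups, 39.0 and 39.3% of TPM. With Ttr removed and TPM rescaled, the enzymes together took 0.671 to 0.754% of TPM in lean and 0.677 to 0.759% in obese rats. Lean rat 6 (0.671%) and obese rat 10 (0.677%) were still the lowest of their groups on this scale.

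In the injected cohort the question was whether obesity joined with testosterone alters the tissue. None of the enzymes passed the threshold here either, but Prdx6 and Prdx2 were the enzymes whose groups did not overlap. Prdx6 was at 188, 184, 202 and 216 TPM in lean control rats 13 to 16 and at 223, 237, 237 and 226 TPM in obese + TT rats 17 to 20. The lowest obese + TT value lay above the highest lean control value. The means were 198 ± 14.6 and 231 ± 7.20 TPM (SD, n = 4 per group). Untreated lean and obese rats had means of 227 and 222 TPM, nearer to the obese + TT than to the lean control mean. Cohort and injections are joined in that comparison. The log2 fold change was 0.23 (SE 0.06, 95% interval 0.09 to 0.36, unadjusted p = 0.00431, limma adjusted p = 0.510). Prdx2 was at 286, 286, 302 and 302 TPM in lean control rats and at 314, 358, 322 and 306 TPM in obese + TT rats. Its log2 fold change was 0.14 (SE 0.06, 95% interval 0.01 to 0.28, unadjusted p = 0.0402, limma adjusted p = 0.668). For each gene the exact two-sided permutation test gave p = 0.0286, the smallest that 4 rats against 4 allow.

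Of 15259 genes tested between obese + TT and lean control rats, 0.0% had an adjusted p under 0.05, and 0 of 9 enzymes did. Unadjusted p-values under 0.05 belonged to 7.43% of all genes and to 2 of 9 enzymes. Groups without overlap and higher in obese + TT rats were seen for 2.37% of all genes and for 2 of 9 enzymes. The other 7 enzymes had overlapping groups and log2 fold changes from -0.09 (Sod1) to 0.14 (Prdx1), with Sod2 at 0.12, Gpx4 at -0.06, Prdx5 and Prdx3 at -0.03 and Gpx1 at -0.01. Their exact p-values were 0.143 to 0.886 (permutation tests, 4 rats against 4). The interval for Sod1 reached down to -0.23 and that for Prdx1 up to 0.32. The median of the 9 was -0.01, and 0.01 over all genes. Across the settings tried and the fits that left out 1 rat, the log2 fold change of Prdx6 stayed between 0.19 and 0.27 with adjusted p-values of 0.354 to 0.874, and that of Prdx2 between 0.09 and 0.17 with adjusted p-values of 0.551 to 0.916.

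Red blood cell transcripts were set beside these values. The 4 globin genes summed to 6251, 3032, 3641 and 2358 TPM in lean control rats 13 to 16 and to 7518, 5222, 9088 and 6262 TPM in obese + TT rats 17 to 20, with overlapping groups. All 5 red blood cell markers with an identifier, of 8 listed, had a positive log2 fold change in both obesity contrasts, with 5 at an unadjusted p under 0.05 in the untreated and 4 in the injected rats and 0 passing the adjusted threshold in either. Within the obese + TT group, rat 18 had the highest Prdx2 and the lowest globin level, and rat 19 had the highest Prdx6 and the highest globin level, as the plot against globins shows. The part of red blood cells in the Prdx2 and Prdx6 values was not tested. In whole tissue, fewer cells of a type and less RNA per cell cannot be told apart.

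**Figure D2:**
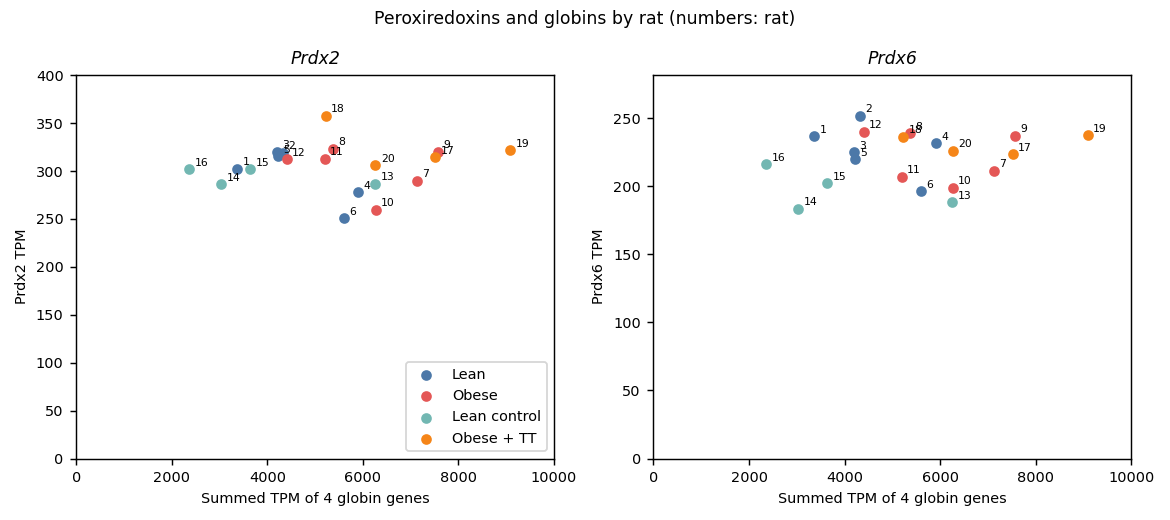
TPM of Prdx2 (left) and Prdx6 (right) against the summed TPM of 4 globin genes, one numbered point per rat, coloured by group. Lean control rats lie at or below 302 TPM for Prdx2 and 216 TPM for Prdx6, and obese + TT rats above these values.

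The obesity contrasts of the cohorts were then compared with each other in one fit of the 20 libraries. Of 15406 genes, 0.0% had an adjusted p under 0.05 for the difference, and 0 of 9 enzymes did. Only Prdx6 among the 9 had an unadjusted p under 0.05 (8.36% of all genes had one). Its difference of log2 fold changes, injected minus untreated, was 0.26 (SE 0.10, 95% interval 0.05 to 0.46, unadjusted p = 0.0176, limma adjusted p = 0.501). The remaining 8 ranged from -0.10 (Sod1) to 0.12 (Sod2).

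**Figure D3:**
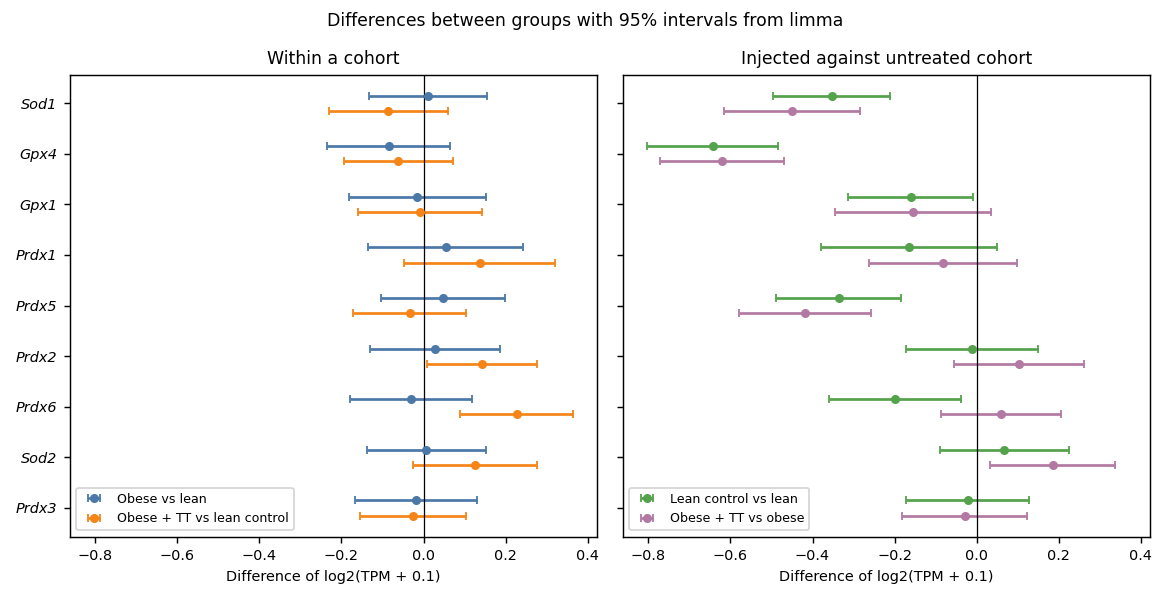
Differences of log2(TPM + 0.1) for each enzyme, with 95% intervals from limma, within the cohorts (left) and between them (right), on a shared axis. All 9 intervals of obese against lean span 0, and those of Prdx6 and Prdx2 do not for obese + TT against lean control. The intervals of Gpx4, Sod1 and Prdx5 lie wholly to the left of 0 in both cohort comparisons.

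Far larger differences separated the injected from the untreated cohort, and they were led by Gpx4, Sod1 and Prdx5. Lean control against lean rats joins the oil injections with the cohort, and obese + TT against obese rats joins testosterone, injections and cohort. The 2 comparisons share no libraries with each other, although each shares its libraries with the obesity contrasts.

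Gpx4 was at 745, 797, 806 and 809 TPM in the lean control rats, all below the lowest lean rat. Its log2 fold change was -0.64 (SE 0.07, limma adjusted p = 1.15e-05), with means of 1236 and 789 TPM. In obese + TT rats it was at 736, 759, 809.9 and 723 TPM, again below every obese rat, with a log2 fold change of -0.62 (SE 0.07, limma adjusted p = 1.70e-05). Gpx4 made up 26.1 ± 0.989% of the summed TPM of the 9 enzymes in lean and 24.7 ± 0.995% in obese rats (SD, n = 6 per group), against 20.8 ± 0.396% in lean control and 19.8 ± 0.332% in obese + TT rats (SD, n = 4 per group).

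Sod1 was at 849, 936, 907 and 919 TPM in lean control rats and at 865, 877, 889 and 774 TPM in obese + TT rats. No injected rat reached the lowest untreated rat. The log2 fold changes were -0.35 (SE 0.07, limma adjusted p = 0.000554) and -0.45 (SE 0.08, adjusted p = 0.000304). Prdx5 was at 350.3, 403, 372 and 385 TPM and at 360.0, 372, 394 and 349.7 TPM, also without overlap. Its log2 fold changes were -0.34 (SE 0.07, limma adjusted p = 0.00123) and -0.42 (SE 0.07, adjusted p = 0.000424). For all 3 genes the exact two-sided permutation test gave p = 0.00952 in both comparisons, the smallest that 4 rats against 6 allow.

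One more enzyme passed the threshold in each comparison. Prdx6 was lower in lean control than in lean rats (log2 fold change -0.20, SE 0.07, limma adjusted p = 0.0357), with overlapping groups, and lost the call in 7 of the 10 fits that left out 1 rat, those without lean rat 1, 2, 3 or 4 or lean control rat 13, 14 or 15 (limma adjusted p = 0.0514 to 0.109). Sod2 was higher in obese + TT than in obese rats, at 128, 137, 142 and 131 TPM against 103 to 128 TPM (log2 fold change 0.19, SE 0.07, limma adjusted p = 0.0381). The groups overlapped, and the call was lost in 6 of 10 such fits, those without obese rat 8, 9 or 10 or obese + TT rat 18, 19 or 20 (limma adjusted p = 0.0540 to 0.112). Conversely, Gpx1 passed when lean rat 6 was left out (log2 fold change -0.20, adjusted p = 0.00754) or obese rat 10 (-0.21, adjusted p = 0.0334), and Prdx1 without lean rat 6 (-0.22, adjusted p = 0.0331). With all rats Gpx1 had log2 fold changes of -0.16 and -0.15, Prdx1 of -0.16 and -0.08, Prdx2 of -0.01 and 0.10 and Prdx3 of -0.02 and -0.03.

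Such calls were common among all genes. Between lean control and lean rats 58.2% of 15326 genes passed, 41.7% higher and 16.5% lower, beside 4 of 9 enzymes, all of them lower. Between obese + TT and obese rats 58.1% of 15389 genes passed, 41.7% higher and 16.4% lower, beside 4 of 9 enzymes, 3 lower and 1 higher. Groups without overlap and lower in the injected rats were found for 10.7 and 11.7% of all genes, and for 3 of 9 enzymes each time. Genes lower past the threshold in both comparisons were 12.7% of 15031, and Gpx4, Sod1 and Prdx5 were the enzymes among them. Genes higher in both were 36.3%, with 0 of 9 enzymes.

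Because the median gene was itself higher in the injected rats, by 0.24 and 0.25 on the log2 scale, the direction for the milder enzymes depended on the scaling. After the libraries were centred on the median of 6472 genes averaging 10 TPM or more, 9 of 9 enzymes were lower past the threshold in lean control against lean rats (30.4% of all genes were lower and 28.8% higher). In obese + TT against obese rats 7 of 9 were lower (29.2% lower, 28.1% higher). These shares cover genes of all levels. The within-group SD of the enzymes exceeded that of 4.15 (Prdx3) to 27.0% (Prdx1) of genes averaging 0.1 TPM or more. Against genes averaging 100 TPM or more it exceeded that of 21.9 (Prdx3) to 72.4% (Prdx1). Shares of genes passing the threshold among genes of like level and spread were not computed. The log2 fold change of Gpx4 became -0.91 and -0.88, and that of Sod2 turned from 0.07 and 0.19 to -0.20 and -0.08. With Ttr removed and TPM rescaled, 6 of 9 enzymes passed in each comparison, all lower, beside 21.6 and 23.1% of all genes lower and 36.1 and 32.7% higher, and Gpx4, Sod1 and Prdx5 passed under all 3 scalings, as the plot of scalings shows. Together the 9 enzymes took 0.474 ± 0.0344 and 0.472 ± 0.0367% of TPM in lean and obese rats (SD, n = 6 per group) and 0.379 ± 0.00968 and 0.382 ± 0.0154% in lean control and obese + TT rats (SD, n = 4 per group).

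**Figure D4:**
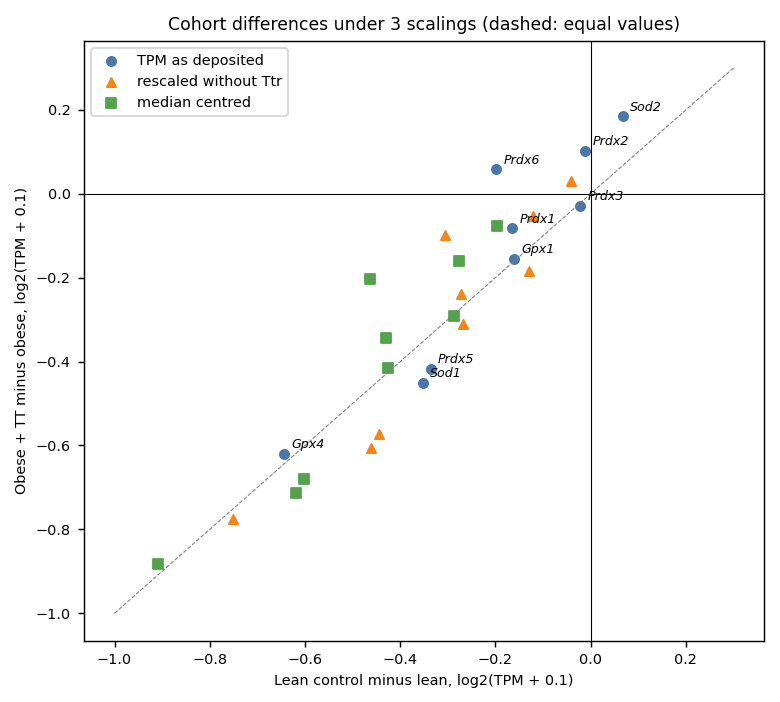
Log2 differences of the 9 enzymes between cohorts, lean control minus lean across and obese + TT minus obese upward, as deposited (circles, named), with TPM rescaled without Ttr (triangles) and after median centring (squares). All squares lie below 0 on both axes, and Gpx4 is the lowest point of each scaling.

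The levels of cell type markers also differed between cohorts. Plvap, the 1 of 6 endothelial markers with an identifier, was at 40.0 to 60.3 TPM in the untreated and 1.68 to 10.6 TPM in the injected rats. The 2 of 4 mural cell markers summed to 81.6 to 135 TPM against 8.09 to 17.4 TPM. Most of the untreated sum was Rgs5, which averaged 99.7 TPM in lean rats, beside 8.50 TPM for Myh11. Only 1 of the 2 passed as lower in lean control against lean rats, and 2 in obese + TT against obese rats. The 3 of 6 fibroblast markers summed to 107 to 150.1 TPM against 51.1 to 91.0 TPM. Within the fibroblast list Col1a1 and Dcn were lower and Pdgfra was higher past the threshold in both comparisons, with Pdgfra means of 25.4 and 28.7 TPM in lean and obese rats against 65.1 and 60.2 TPM in lean control and obese + TT rats. The macrophage genes Cd74 and Lyz2, 2 of 8 listed, summed to 415 to 546 TPM against 95.2 to 284 TPM. No marker was at 0 in any library. The part of these differing levels in the enzyme values was not tested. Cohort, injection and tissue make-up cannot be told apart in this design.

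Deviations of log2(TPM + 0.1) from the group means were compared between enzymes over the 20 rats. They correlated positively for all 36 pairs (Pearson's r from 0.13 to 0.93, median 0.54). This description includes whatever a library's points share, such as its Ttr share. Pairs of other genes of like level were not counted, so that the correlation cannot be called particular to the enzymes. Prdx5 was nearest to Sod1 (r = 0.93), followed by Psma1 and Etfa among 2607 genes with a symbol. Sod1 was nearest to Prdx5, Trappc3 and Etfa (0.91 to 0.93), and Gpx4 to Prdx5 (0.88), Tmem183a and Psma1. Gpx1 was nearest to the ferritin gene Fth1 (0.92), Cnbp and Psmc1, and Sod2 to Rragd (0.92), Vcp and Tuba1b. Prdx1 was nearest to LOC100911847 (0.94) and the ribosomal protein genes Rps3a and Rpl7, Prdx6 to Rpl7a (0.80, under 2 identifiers with the same values) and Eif3l. Prdx2 was nearest to Tmem147 (0.92), the mitochondrial pore gene Vdac2 and Ndufs8 of respiratory complex I, and Prdx3 to Idh3b (0.86) of the citric acid cycle, Pdia6 and Atp6v1c1.

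The partners of these enzymes were read from lists of the same chemistry, of which 37 of 78 genes had an identifier. In obese against lean rats 0 of 37 passed the adjusted threshold. An unadjusted p under 0.05 belonged to 5 of 37, beside 9.66% of all genes. The smallest p-values were those of the metallothioneins Mt1 and Mt2A, which bind zinc and copper (log2 fold changes -0.50 and -0.78, adjusted p = 0.302 and 0.459 from limma), and of the glutathione transferase Gstm7 (-0.24, adjusted p = 0.312). In obese + TT against lean control rats 0 of 37 passed and 8 had an unadjusted p under 0.05 (7.43% of all genes did), led by Selenos, a selenoprotein of the endoplasmic reticulum (-0.22, adjusted p = 0.518), the selenium carrier Selenop (-0.77, adjusted p = 0.543) and the NADPH-making malic enzyme Me1 (0.20, adjusted p = 0.594). For the difference between the contrasts 0 of 37 passed, and Selenop (-0.87), Me1 (0.28) and Gstm1 (0.24) had the smallest p-values, with adjusted p-values of 0.465 to 0.576 from limma.

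In lean control against lean rats 6 of 37 were higher and 16 lower past the threshold, beside 41.7 and 16.5% of all genes. After median centring 1 was higher and 27 were lower, beside 28.8 and 30.4% of all genes. Of 5 NADPH genes, 3 rose: Nnt of the mitochondrial inner membrane (log2 fold change 0.71), the pentose phosphate enzyme Tkt (0.42) and Me1 (0.27). After centring Tkt (0.16) and Me1 (0.01) no longer passed. Of 8 genes of the thioredoxin system, 5 fell, namely Txn1 (-0.55), the mitochondrial Txn2 (-0.43), Glrx5, Glrx3 and Nxn, and 0 rose. Of 11 genes of glutathione supply and use, Mgst1, Gsto1, Gsta1, Gstp1 and Gstk1 fell (-0.38 to -0.22) and Gstm1 rose (0.23, or -0.04 after median centring). Mt2A (-3.82), Mt1 (-0.90) and Ccs (-0.30), the copper chaperone of Sod1, fell, while the secreted dismutase Sod3 rose (0.36, or 0.09 and no longer past the threshold after centring). Selenos (-0.53) and Selenof (-0.21) fell and Selenot rose (0.15, or -0.11 after centring), and the methionine sulphoxide reductase Msrb1 fell (-0.22). Of 2 genes of the NRF2 list, 0 passed.

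In obese + TT against obese rats 7 of 37 were higher and 14 lower past the threshold, beside 41.7 and 16.4% of all genes. After median centring 5 were higher and 24 lower, beside 28.1 and 29.2% of all genes. Of the 5 NADPH genes 4 rose, Nnt (0.78), Me1 (0.56), Tkt (0.55) and Idh2 (0.21, or -0.06 after centring), and 0 fell. Of 8 thioredoxin system genes 4 fell (Txn1 -0.68, Txn2 -0.21, Glrx -0.22 and Glrx5 -0.27). Gsta4 (-0.58), Gsta1 (-0.41), Gsto1 (-0.35) and Mgst1 (-0.34) fell and Gstm1 rose (0.47). Mt2A (-3.99), from 104.4 to 6.47 TPM, and Mt1 (-0.74) fell and Sod3 rose (0.44). Selenos (-0.57), Selenop (-0.58) and Selenof (-0.28) fell, Ephx1 rose (0.39, or 0.13 and no longer past the threshold after centring) and Akr1b1 fell (-0.19), and 0 of 2 protein repair genes passed. After median centring 3 of the 5 NADPH genes remained higher past the threshold in obese + TT rats, but 1 was higher and 2 were lower in lean control rats. The 7 genes listed as oxidant sources had no identifier at hand.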

How the data were processed

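Choroid plexus RNA was read as paired ends of 150 bases. The submitters' processing notes name STAR 2.7.9a, RSEM 1.3.3, DESeq2 and the build Rnor_6.0. The authors deposited TPM and FPKM for each rat; FPKM equalled TPM times 1 factor per library (to within 0.190%) and was used only for that check. Read counts were not analysed here, so the count test of the study's methods was replaced by a test on the log scale.

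Symbols came from the study's tables, which name 2616 of 32883 identifiers here, mostly abundant genes. Enzymes, lists and tests were chosen with earlier results of these data known. All 10 enzymes were to be named, and of the lists of related genes every one that passed, or otherwise the 3 with the smallest p, plus the 3 genes correlating best with each enzyme. For each comparison limma 3.58.1 (R 4.3.3; eBayes with trend) was run on log2(TPM + 0.1) of the groups compared, keeping genes that averaged 0.1 TPM or more. P-values were adjusted by Benjamini-Hochberg over all genes tested, with a threshold of 0.05. The pseudocount understates changes of low genes, which these enzymes are not. Exact permutation tests used the same log values. Scripts were tested on simulated data. No pair of libraries was a duplicate: at most 0.486% of values were identical. Python 3.11.15 and matplotlib 3.10.9 were used. RefSeq names 7 pseudogenes of Prdx1, 4 of Gpx4, 3 of Prdx6, 1 of Prdx3 and 1 of Sod2, among which reads may be split.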

Additional observations from a re-analysis of the deposited data

Results flagged for a closer look

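Prdx1 in obese + TT rat 18 stood apart from its group at 490.4 TPM, with the other 3 rats at 552 to 564 TPM, a gap of 0.839 of the group's range, past the 95% limit of Dixon's test for 4 samples. It was the 1 of 48 groups of values tested this way that stood out, and chance alone gives about 2.4.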

How the results depend on the processing

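No paired analysis was possible because the rats are numbered from 1 to 20 without a number shared between groups. In obese against lean rats the count of all genes passing went from 0 to 1 with median centring and 3 with one fit of the 20 libraries, and in obese + TT against lean control rats to 2 and 6. For the difference between these contrasts it was 1 with a minimum mean of 1 TPM, 1 with the robust option, 2 with median centring and 10 without Ttr. Enzymes passing between cohorts went from 4 to 9 (lean control against lean) and from 4 to 7 (obese + TT against obese) with median centring. Without Ttr the enzymes took 0.718, 0.722, 0.533 and 0.525% of TPM in lean, obese, lean control and obese + TT rats. Leaving out 1 rat gave 0 to 1 genes (obese against lean), 0 to 25 (obese + TT against lean control, 25 without lean control rat 13), 0 to 14 (difference, 14 without the same rat), 8206 to 8822 (lean control against lean) and 8244 to 8908 (obese + TT against obese). Enzymes passing were then 3 to 6 and 3 to 4 between cohorts and 0 to 0 elsewhere. Without the trend, Prdx6 (lean control against lean) and Sod2 (obese + TT against obese) no longer passed. Median centring turned the log2 fold changes of Sod1 and Sod2 in obese against lean rats to -0.0060 and -0.011, of Sod2 to -0.20 in lean control against lean rats, and of Prdx2, Prdx6 and Sod2 to -0.16, -0.20 and -0.077 in obese + TT against obese rats. Removing Ttr turned Gpx1 in obese against lean rats to 0.00020, Sod2 in lean control against lean rats to -0.041, Prdx2 and Prdx6 in obese + TT against obese rats to -0.053 and -0.097, and the difference for Gpx1 and Gpx4 to -0.041 and -0.024.

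Values near 0 changed sign when 1 rat was left out. In obese against lean rats the ranges were -0.0053 to 0.096 for Prdx1, -0.021 to 0.071 for Prdx2, -0.055 to 0.0060 for Prdx3, -0.071 to 0.00088 for Prdx6, -0.057 to 0.036 for Gpx1, -0.023 to 0.044 for Sod1 and -0.027 to 0.046 for Sod2. In obese + TT against lean control rats they were -0.053 to 0.0027 for Prdx3 and -0.050 to 0.034 for Gpx1. In lean control against lean rats they were -0.060 to 0.010 for Prdx2 and -0.049 to 0.0069 for Prdx3, and in obese + TT against obese rats -0.052 to 0.0087 for Prdx3. For the difference they were -0.035 to 0.030 for Prdx3, -0.045 to 0.049 for Gpx1 and -0.017 to 0.065 for Gpx4. None of these values passed the threshold. The mapped reads behind each value are unknown, and 4 rats per injected group limit what can be detected.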
